A study of Homo sapiens with 23 samples.

Results

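The clade B serpins are intracellular protease inhibitors of the ovalbumin type, and 9 of them were followed here: SERPINB1, SERPINB2, SERPINB3, SERPINB4, SERPINB5, SERPINB7, SERPINB8, SERPINB12 and SERPINB13. They were taken from the deposited table by gene symbol, as 9 of 27589 genes, and each of the 9 had a mean normalized value of at least 10 and were tested. RNA was measured by poly(A) RNA-seq in SCC-13 tumours grown under the skin of NCG mice to day 26. SCC-13 is an established line from a human squamous cell carcinoma of the skin, and NCG is an immunodeficient strain with no working lymphocytes, though with some myeloid cells of its own. Per the labels, the cells were either knockout (KO) or wild type (WT) for hFWE, human Flower, whose gene symbol is CACFD1. There were 11 KO tumours, 3 of line 2F7, 4 of line 2B8 and 4 of line 1G10, and 12 WT tumours, 4 each of lines 5B2, 6C9 and 6C10. How the lines were made is not stated, so genotype and line are nested and can be told apart only through the 3 lines on each side. Whether tumours shared a mouse is not stated either, so p-values speak only of the spread among these tumours, which may be technical. Tumours are named by genotype, line and specimen label.

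Serpins trap a protease by offering it an exposed reactive centre loop as bait and then changing shape while the protease is still attached, which inactivates both. Members of clade B mostly stay inside the cell, where they are thought to guard against proteases that leak from lysosomes or granules. In stratified epithelium several of them are made in the upper, differentiating layers, and most of their genes lie side by side on the long arm of chromosome 18. Of the 9 serpins, 8 lie in that cluster of 10 genes, between 63476958 and 64019779 on hg38, and SERPINB1 lies on chromosome 6.

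Of the 23 libraries, 21 held between 13082192 and 22093205 reads by an estimate from the values, and the other 2, both WT line 6C9, held 7011073 in specimen 5532 and 2037753 in specimen 5533. Specimen 5533 also stood apart in its profile, where its correlation with another library had a median of 0.763 and every other library's median was at least 0.943. CACFD1 itself was still transcribed, at 276 ± 58.9 in KO tumours and 373 ± 47.1 in WT tumours (SD, n = 11 and 12), with each of the 11 KO values under the median of WT. The keratinocyte markers that define the labelled cell type, such as TP63, passed the filter for 8 of 8 genes. Of these, 1, DSG3, was higher in KO tumours at an unadjusted p under 0.05, where 5.9% of all tested genes were. Its log2 difference was 0.38 (SE 0.15, adjusted p = 0.304, limma). Values are read counts scaled per library by the authors, not divided by gene length unless stated.

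In KO tumours the mean level of 8 of the 9 serpins was lower than in WT tumours on the log2 scale, most of all for SERPINB3, SERPINB4 and SERPINB7, while SERPINB5 differed little. None of these differences passed adjustment over all 16063 tested genes. By limma with Benjamini-Hochberg adjustment at 0.05, 0 of 9 serpins were called, where 0.00623% of all tested genes were called, and the lowest adjusted p was 0.227. At an unadjusted p under 0.05, 6 of 9 were lower and 0 higher, against 6.63% of all tested genes lower and 5.9% higher. The median log2 difference, KO minus WT, was -0.64 over the 9 serpins and 0.03 over all tested genes. The 9 were chosen with earlier results of these data known, so this contrast with all tested genes is only a description. With library quality weights, which limma estimates and which gave WT 6C9 specimen 5533 a weight of 0.0287, 5 of 9 were called, all lower: SERPINB2, SERPINB3, SERPINB4, SERPINB7 and SERPINB13, with adjusted p of 0.0136 to 0.0240, where 4.59% of all tested genes were called. These calls too treat tumours of a line as nearly independent (consensus correlation 0.034). In bulk tissue, fewer cells of a type and less RNA per cell cannot be told apart.

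**Figure D1:**
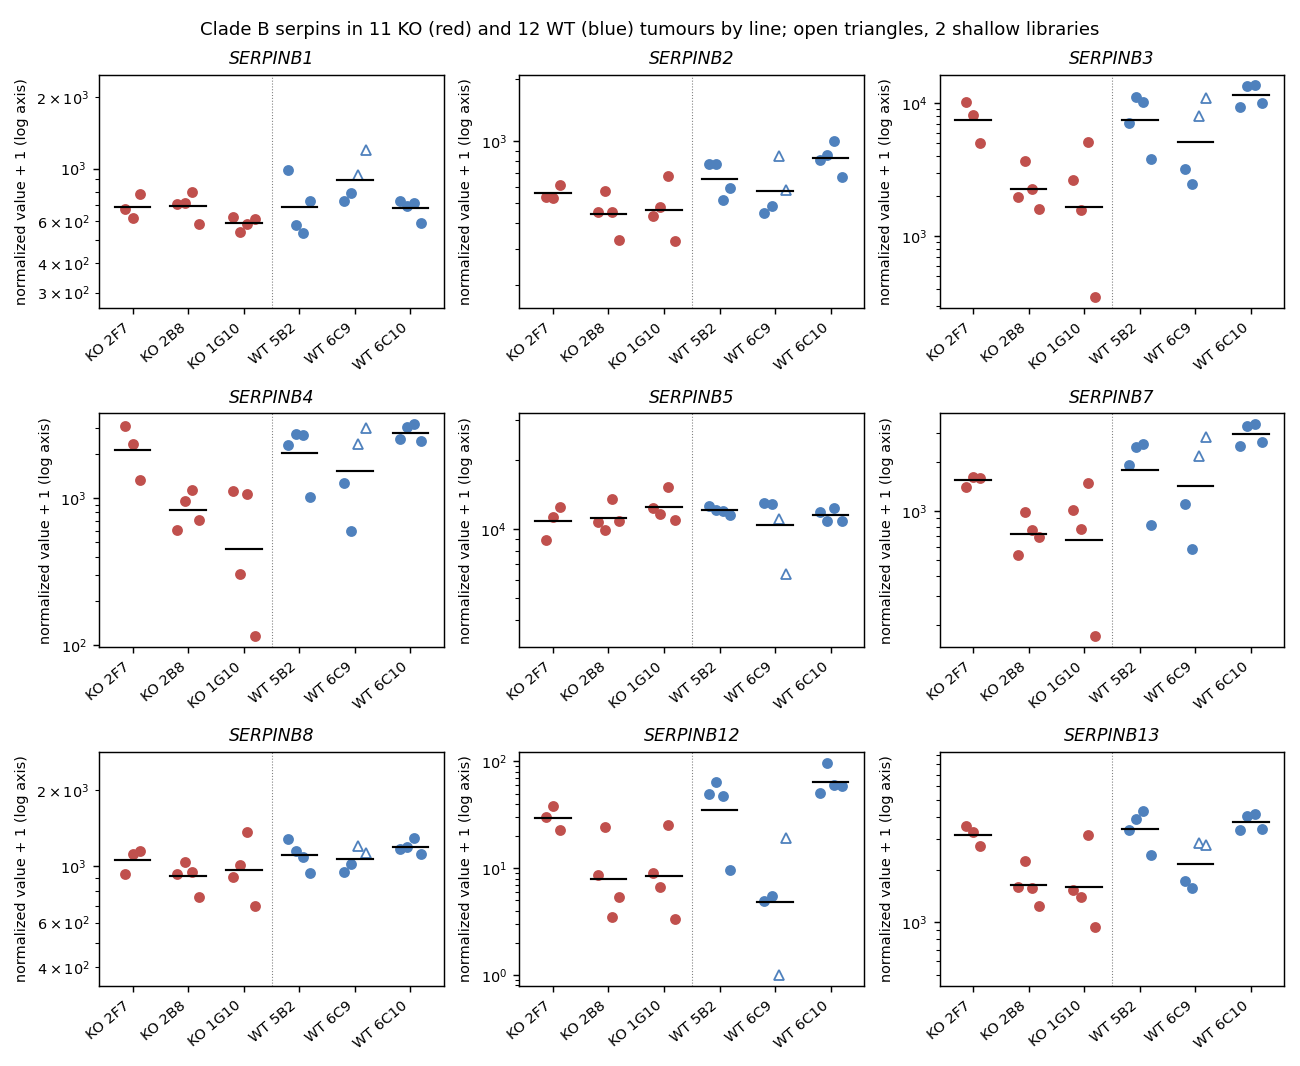
Normalized value + 1 on a log axis for each serpin, by line, with KO lines in red and WT lines in blue. Each point is 1 tumour, bars are line means of log2(value + 1), and open triangles are the 2 shallow libraries. The KO 2F7 tumours sit among the WT tumours for SERPINB3, at 5024 to 10306, while KO 2B8 and KO 1G10 tumours reach down to 1616 and 347.

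SERPINB3 and SERPINB4, the squamous cell carcinoma antigens, are neighbours on the minus strand of chromosome 18 (SERPINB3, ENSG00000057149, 63655197 to 63661893; SERPINB4, ENSG00000206073, 63637259 to 63644256, hg38). Both proteins are serpins of squamous epithelium, and they differ in their targets: SERPINB3 is known for cysteine proteases such as cathepsins L, K and S, and SERPINB4 for chymotrypsin-like serine proteases such as cathepsin G. In the principal protein-coding transcripts of GENCODE release 29 their coding sequences have the same length, 1173 bases, and differ at 56 of them, an identity of 95.2%. The 100 coding bases with the most differences, 16 in all, show where the 2 genes part, and the differing bases are in capitals. They are coding bases 970 to 1069 and include part of the codons of the reactive centre loop, the bait for the protease (SERPINB3 at chr18:63655761-63655860, SERPINB4 at chr18:63637823-63637922, minus strand, hg38).
SERPINB3: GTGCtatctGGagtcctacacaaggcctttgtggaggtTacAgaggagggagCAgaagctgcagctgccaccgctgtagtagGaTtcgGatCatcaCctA
SERPINB4: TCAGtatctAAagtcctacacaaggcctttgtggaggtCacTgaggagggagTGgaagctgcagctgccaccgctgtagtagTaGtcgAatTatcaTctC
By contrast, the longest run shared without a difference is 129 bases, coding bases 204 to 332, and crosses a splice junction, so that a read lying inside it carries no mark of its gene.
SERPINB3 and SERPINB4: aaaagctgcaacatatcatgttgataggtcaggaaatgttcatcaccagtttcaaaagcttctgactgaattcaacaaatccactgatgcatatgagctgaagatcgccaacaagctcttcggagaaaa

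Over the whole transcripts, 23.9% of the 50-base windows of SERPINB3 and 24.3% of those of SERPINB4 occur unchanged in the other transcript, and of the 100-base windows 3.40% and 3.46% do. The deposited values hold fractions of reads for the pair. Expressed in reads, SERPINB3 came out whole within 0.1 reads in 4 of the 14 libraries with under 6000 reads of it and SERPINB4 in 5 of 23, whereas their sum came out whole in 11 of 13. How reads were split between the 2 genes is not stated, and their sum does not depend on the split. SERPINB3 also lies within the span of SERPINB11 on the opposite strand, and the sources used here do not give whether counting used strand.

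Normalized values of SERPINB3 were 10306, 8148 and 5024 in KO 2F7 tumours, 1971, 3679, 2281 and 1616 in KO 2B8, and 2657, 1589, 5133 and 347 in KO 1G10. In WT tumours they were 7088, 11122, 10311 and 3805 in line 5B2, 3228, 2459, 8109 and 10910 in 6C9, and 9330, 13460, 13720 and 10156 in 6C10. The groups overlapped: 5 of 11 KO tumours lay below the lowest WT tumour, and 5 of 12 WT tumours lay above the highest KO tumour. The 2 high tumours of WT line 6C9, 8109 and 10910, are the shallow libraries, and its deep libraries, 3228 and 2459, lay within the range of KO line 2B8. SERPINB3 had a log2 difference, KO minus WT, of -1.44 (SE 0.44), a fold of 0.369, with an adjusted p of 0.233 by limma and an unadjusted p of 0.00297. KO 1G10 specimen 5549 was the lowest tumour of all. Without it the log2 difference was -1.14, and without the 2 shallow libraries it was -1.32 (adjusted p = 0.396, limma).

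SERPINB4 ran in parallel, with a lowest, median and highest value of 114, 1066 and 3115 in KO tumours, against 596, 2482 and 3203 in WT tumours. Its log2 difference was -1.25 (SE 0.42, adjusted p = 0.259, limma). Summed, the pair reached 460, 3774 and 13421 as the lowest, median and highest value in KO tumours and 3055, 12225 and 16923 in WT tumours, with a log2 difference of -1.39 (SE 0.43, adjusted p = 0.236, limma). SERPINB4 took 23.8% ± 5.42 of the sum in KO tumours and 21.3% ± 2.77 in WT tumours (SD, n = 11 and 12). The share ranged from 16.1% in KO 1G10 specimen 5547 to 33.3% in KO 2B8 specimen 5544, and it can carry the error of the read split.

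SERPINB7, known as megsin and mutated in Nagashima-type palmoplantar keratosis (ENSG00000166396, chromosome 18, 63752935 to 63805376, plus strand, hg38), was below the WT median in every KO tumour. Its values were 1404, 1616 and 1589 in KO 2F7 tumours, 533, 988, 763 and 687 in KO 2B8, and 1004, 769, 1474 and 170 in KO 1G10. In WT tumours they were 1896, 2437, 2546 and 821 in 5B2, 1103, 586, 2176 and 2823 in 6C9, and 2493, 3293, 3390 and 2640 in 6C10. Of the WT tumours, 9 of 12 lay above the highest KO tumour; the other 3 were 5B2 specimen 5529 and the 2 deep libraries of 6C9. Because these were low, only 2 of 11 KO tumours lay below the lowest WT tumour. The log2 difference was -1.17 (SE 0.35, adjusted p = 0.228, limma). Every KO tumour was below the WT median for SERPINB2 and SERPINB12 too, so for 3 of the 9 serpins, where 2.76% of all tested genes met that condition.

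SERPINB13, a serpin of stratified epithelium that inhibits cathepsins L and K (ENSG00000197641, chromosome 18, 63586989 to 63604639, plus strand, hg38), had values of 3555, 3293 and 2741 in KO 2F7 tumours, 1599, 2233, 1571 and 1245 in KO 2B8, and 1527, 1402, 3153 and 939 in KO 1G10. WT tumours had 3365, 3878, 4343 and 2427 in 5B2, 1724, 1580, 2853 and 2768 in 6C9, and 3381, 4039, 4168 and 3425 in 6C10. The 3 KO 2F7 tumours, KO 2B8 specimens 5542 and 5543 and KO 1G10 specimen 5548 lay among the WT tumours, and the other 5 of 11 KO tumours lay below the lowest WT tumour. The log2 difference was -0.64 (SE 0.22, adjusted p = 0.276, limma).

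SERPINB2, the urokinase inhibitor that also occurs inside keratinocytes of the upper epidermis (ENSG00000197632, chromosome 18, 63871692 to 63903888, plus strand, hg38), differed by less. By tumour it had 536, 530 and 609 in KO 2F7, 452, 571, 451 and 329 in KO 2B8, and 430, 476, 673 and 325 in KO 1G10. It had 777, 770, 514 and 591 in WT 5B2, 444, 481, 851 and 576 in WT 6C9, and 810, 858, 998 and 666 in WT 6C10. The genotypes overlapped between 444 and 673, and 6 of 12 WT tumours lay above the highest KO tumour. SERPINB2 had a log2 difference of -0.49 (SE 0.14, adjusted p = 0.227, limma). Its gene overlaps SERPINB10 on the same strand, and in 3 of 23 libraries its reads were fractional while the sum of both genes was whole in 23 of 23. SERPINB10 held at most 5.13 reads in any library, so the split hardly touches SERPINB2.

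SERPINB8, a furin inhibitor whose loss causes a peeling skin disorder (ENSG00000166401, chromosome 18, 63970029 to 64019779, plus strand, hg38), had a lowest, median and highest value of 698, 950 and 1362 in KO tumours, against 938, 1140 and 1294 in WT tumours. The highest tumour of all 23 and the lowest were both of KO line 1G10, specimens 5548 and 5549. The log2 difference was -0.21 (SE 0.09, adjusted p = 0.362, limma). SERPINB12, an inhibitor of trypsin-like proteases (ENSG00000166634, chromosome 18, 63542369 to 63569329, plus strand, hg38), was the weakest of the 9, with 2.34, 8.02 and 37.3 as its lowest, median and highest value in KO tumours and 0, 47.7 and 96.1 in WT tumours. That is between 0 and 111 reads a library, and the 0 was in the shallow WT 6C9 specimen 5532, where a count of 0 allows up to 3 reads, a value of 5.85, by counting error alone. The log2 difference was -0.92 with an SE of 0.68 (adjusted p = 0.537, limma), and without the 2 shallow libraries it was -1.30.

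SERPINB1, the inhibitor of neutrophil elastase and related granule proteases (ENSG00000021355, chromosome 6, 2832332 to 2841959, minus strand, hg38), had a lowest, median and highest value of 541, 621 and 799 in KO tumours, against 536, 727 and 1197 in WT tumours. Its log2 difference was -0.19 (SE 0.11, adjusted p = 0.467, limma), and it was -0.10 without the shallow libraries, which held the 1197. SERPINB5, or maspin, which does not inhibit proteases and is known from human breast epithelium as a tumour suppressor (ENSG00000206075, chromosome 18, 63476958 to 63505085, plus strand, hg38), had 8925, 11304 and 15340 as its lowest, median and highest value in KO tumours and 6376, 11969 and 13034 in WT tumours. Its log2 difference was 0.03, with a 95% interval from -0.20 to 0.25 (SE 0.11, adjusted p = 0.909, limma), and it turned to -0.06 without the shallow libraries. The lowest WT value, 6376, was that of the shallow specimen 5533.

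Divided by the exon length of each gene in GENCODE release 29, SERPINB5 was the most abundant of the 9 in KO tumours and SERPINB3 in WT tumours. On this scale of normalized value per kilobase, levels in KO tumours were 2954 ± 449 for SERPINB5, 2187 ± 1716 for SERPINB3 and 578 ± 433 for SERPINB4 (SD, n = 11). In WT tumours they were 4863 ± 2143 for SERPINB3, 2911 ± 448 for SERPINB5 and 1125 ± 420 for SERPINB4 (SD, n = 12). After these came SERPINB13 and SERPINB7, then SERPINB1, SERPINB2 and SERPINB8, and last SERPINB12, at 11.8 ± 9.61 in KO tumours and 29.9 ± 23.8 in WT tumours. Ranges of mean ± SD overlapped between SERPINB3 and SERPINB5 in both genotypes, and among SERPINB4, SERPINB7 and SERPINB13, and among SERPINB1, SERPINB2 and SERPINB8. In KO tumours SERPINB12 alone was clear of its neighbour in the order, and in WT tumours these sets were separate from one another.

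The lower levels were those of KO lines 2B8 and 1G10, while KO 2F7 lay close to the WT lines. Each KO line was set against the mean of the 3 WT lines in 1 fit of line means, so the 3 comparisons share their WT tumours. In KO 2F7, 0 of 9 serpins had an unadjusted p under 0.05, where 1.1% of all tested genes were lower and 1.38% higher, and the median log2 difference over the 9 was -0.06. In KO 2B8, 7 of 9 were lower at that level, where 4.47% of all tested genes were lower and 3.72% higher, with a median of -0.89. In KO 1G10, 7 of 9 were lower as well and 0 higher, where 5.62% of all tested genes were lower and 4.03% higher, with a median of -0.93. After adjustment 0 of 9 were called in each line, where 0% of all tested genes were called in each, and the lowest adjusted p was 0.152, for SERPINB4 in KO 1G10 (limma).

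By gene, SERPINB3 differed from the WT lines by -0.02 (SE 0.55) in KO 2F7, -1.74 (SE 0.49) in KO 2B8 and -2.20 (SE 0.49) in KO 1G10 on the log2 scale. SERPINB4 differed by 0.05 (SE 0.53), -1.30 (SE 0.47) and -2.18 (SE 0.47) in the same lines. For SERPINB13 the log2 differences were 0.07 (SE 0.26), -0.89 (SE 0.23) and -0.93 (SE 0.23). SERPINB7 differed by -0.34 (SE 0.48), -1.42 (SE 0.43) and -1.54 (SE 0.43). The KO 1G10 values rest in part on specimen 5549: without it they were -1.45 for SERPINB3, -1.52 for SERPINB4 and -0.89 for SERPINB7, and those of SERPINB3 and SERPINB7 were then closer to 0 than the values of KO 2B8 above. The 95% interval of KO 2F7 included 0 for all 9 serpins, and for SERPINB3 it ran from -1.16 to 1.12. The 2 that missed the unadjusted threshold were SERPINB1 and SERPINB5 in KO 2B8, and SERPINB5 and SERPINB8 in KO 1G10.

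**Figure D2:**
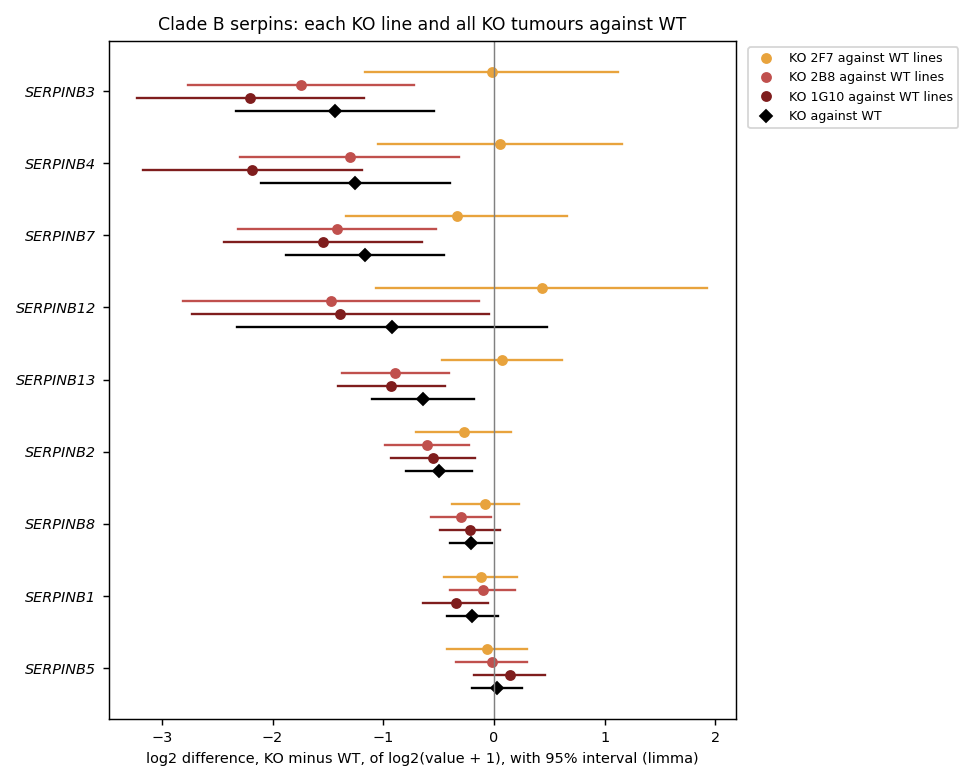
Log2 difference, KO minus WT, of log2(value + 1) for each serpin with its 95% interval by limma, for each KO line against the 3 WT lines and, as black diamonds, for all KO tumours. The KO 2F7 intervals include 0 for every serpin, while for SERPINB3 those of KO 2B8 and KO 1G10 end at -0.72 and -1.18.

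Lines of the same genotype also differed. An F test among the 3 KO lines gave an unadjusted p under 0.05 for 3 of 9 serpins, where 2.22% of all tested genes did. These were SERPINB13 (F = 6.56), SERPINB4 (F = 6.38) and SERPINB3 (F = 6.04), each with an adjusted p of 1 by limma. Among the 3 WT lines it did so for 2 of 9, where 10.3% of all tested genes did. These were SERPINB13 (F = 4.53) and SERPINB12 (F = 12.5), each with an adjusted p of 0.482 by limma. SERPINB12 averaged 6.68 in line 6C9 against 42.0 in 5B2 and 65.9 in 6C10. After adjustment 0 of 9 were called either way, where 0% of all tested genes were called among KO lines and 0.00623% among WT lines.

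With the line as the unit, the KO line means of log2(value + 1) lay wholly below the WT line means for SERPINB2 and SERPINB8 and for none of the other 7, where 8.87% of all tested genes did so. For those 2 the exact two-sided permutation test over lines, 3 against 3, gave p = 0.1, the smallest that it can give. It gave 0.2 for SERPINB7 and SERPINB13 and 0.3 for SERPINB3 and SERPINB4. The KO 2F7 mean lay above that of WT 6C9 for these 4, and for SERPINB3 and SERPINB4 also above that of WT 5B2. Without the 2 shallow libraries the line means overlapped for all 9.

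Replicate tumours of 1 line differed widely for SERPINB3 and SERPINB4. SERPINB3 spanned 14.8-fold among the 4 tumours of KO 1G10 and 1.47-fold among those of WT 6C10, and SERPINB4 9.82-fold and 1.31-fold. Within lines the SD of log2 values was 0.92 for SERPINB3, 0.89 for SERPINB4, 0.80 for SERPINB7 and 1.17 for SERPINB12, against a median of 0.39 over all tested genes. It was 0.43 for SERPINB13, which both F tests named, 0.33 for SERPINB2, 0.26 for SERPINB5, 0.24 for SERPINB1 and 0.22 for SERPINB8. KO 1G10 specimen 5549 was the lowest of all 23 tumours for SERPINB2, SERPINB3, SERPINB4, SERPINB7, SERPINB8 and SERPINB13.

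From tumour to tumour, 7 of the serpins varied together, and SERPINB1 and SERPINB5 did not vary with them. Across the 23 tumours SERPINB3 and SERPINB4 had a Pearson r of 0.97 and a Spearman rho of 0.94 of log2 values (adjusted permutation p of 3e-05 and 4.5e-05 over 36 pairs), and r was 0.95 without the 2 tumours farthest from the median of SERPINB3. Fractional reads tie the values of this pair to each other. SERPINB3 had r = 0.96 with SERPINB7 and 0.95 with SERPINB13, and SERPINB2 had r = 0.88 with SERPINB8. With the line means removed these 4 values were 0.93, 0.94, 0.93 and 0.86. All 21 pairs among SERPINB2, SERPINB3, SERPINB4, SERPINB7, SERPINB8, SERPINB12 and SERPINB13, a set picked after the values were seen, had r between 0.55 and 0.97. With the line means removed they had r between 0.21 and 0.94, with a median of 0.73, and the lowest was SERPINB2 with SERPINB12. Pairs with SERPINB5 had r between -0.40 and 0.17, and pairs with SERPINB1 between -0.40 and 0.29. The -0.40 of SERPINB1 with SERPINB5 (rho 0.11) came to 0.01 without WT specimens 5526 and 5533. Tumours of a line share their cells, so these permutations treat as independent what is in part not.

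**Figure D3:**
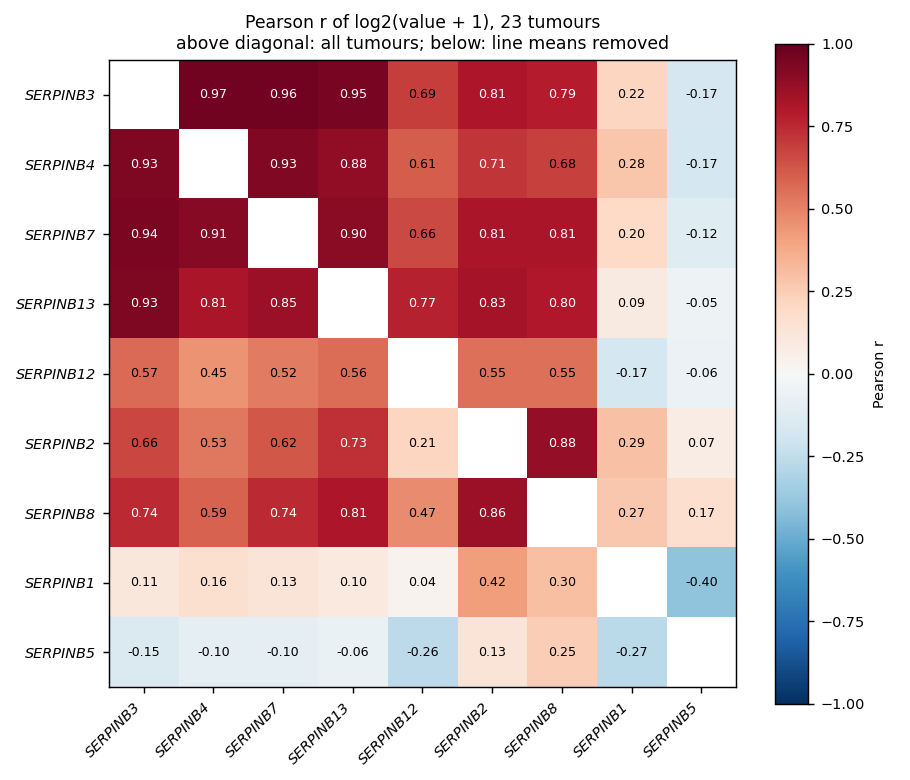
Pearson r between serpins over 23 tumours, above the diagonal for all tumours and below it with line means removed. SERPINB3, SERPINB4, SERPINB7 and SERPINB13 form the darkest block, with r of 0.88 to 0.97 above the diagonal, and the rows of SERPINB1 and SERPINB5 are pale.

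The 7 serpins also went with the markers of late keratinocyte differentiation, the genes of the spinous, granular and cornified layers such as KRT1, FLG and LORICRIN. The score of a tumour is the mean of log2(value + 1) over 21 such genes, and it was 12.31 ± 0.82 in KO tumours and 12.98 ± 0.36 in WT tumours (SD, n = 11 and 12). At an unadjusted p under 0.05, 12 of the 21 markers were lower in KO tumours and 0 higher. Of all tested genes 6.63% were lower and 5.9% higher at that level, with a median log2 difference of 0.03. Of the 21 markers 0 passed adjustment, and their median log2 difference was -0.60. By sign alone 17 of the 21 were lower and 4 higher. The 4 higher were KRT2 at 0.40 (SE 0.52), IVL at 0.26 (SE 0.21), DSG1 at 0.25 (SE 0.26) and SPRR2A at 0.13 (SE 0.36). LORICRIN was at -2.18 (SE 0.63) and CALML5, a calcium-binding protein of the upper layers, at -1.12 (SE 0.33), with adjusted p of 0.227 and 0.228 (limma). By KO line that median was -0.07 in 2F7, -0.72 in 2B8 and -0.72 in 1G10. Their summed value ranged from 90268 to 686508 in KO tumours and from 324902 to 865900 in WT tumours, and all 21 passed the filter on low values. KO 1G10 specimen 5549, the tumour lowest in 6 serpins, had the lowest score, 10.18.

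Over the 23 tumours the score had r = 0.91 and rho = 0.87 with SERPINB7, each with an adjusted permutation p of 2.25e-05 over 9 relations, and r = 0.87 without the 2 tumours with the most extreme score. With SERPINB3 r was 0.90 and rho 0.84 (adjusted permutation p = 2.25e-05 for both), and r was 0.85 without those 2. SERPINB13 had r = 0.86, SERPINB8 0.85, SERPINB4 0.85, SERPINB2 0.78 and SERPINB12 0.65. For SERPINB1 r was 0.12 and for SERPINB5 0.06. Within the 11 KO tumours r was 0.96 for SERPINB7 and 0.90 for SERPINB3, and within the 12 WT tumours 0.81 for both. With the line means removed r was 0.86 for SERPINB7 and 0.85 for SERPINB3. As for the pairs of serpins, the permutations treat tumours of a line as independent, which they are in part not. The part of these markers in the genotype difference of the serpins was not tested.

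**Figure D4:**
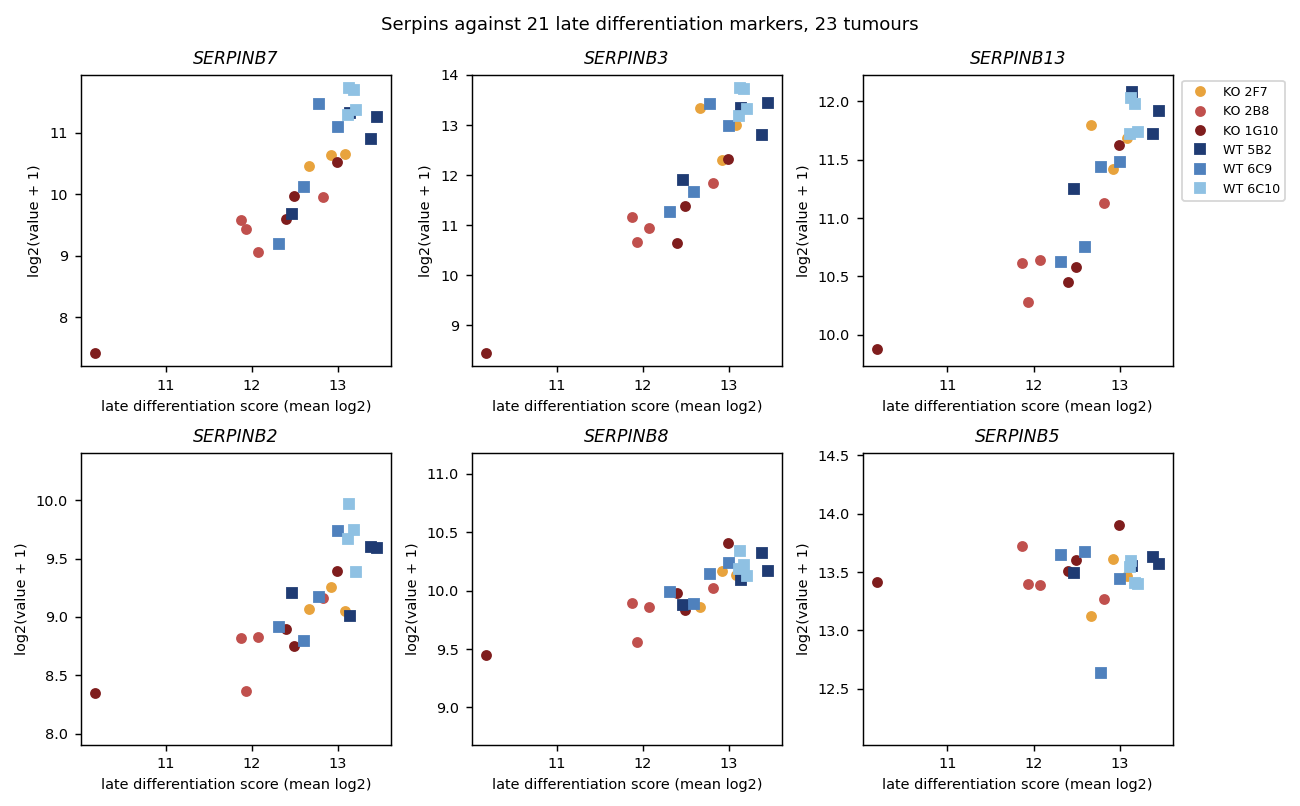
Log2(value + 1) of 6 serpins against the late differentiation score, KO tumours as circles and WT tumours as squares, coloured by line. SERPINB7, SERPINB3 and SERPINB13 follow the score in both genotypes (r = 0.91, 0.90 and 0.86), and SERPINB5 is flat (r = 0.06).

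Among the 14739 tested genes with an official symbol that are not serpins of this set, those most like each serpin over the 23 tumours included several known from the differentiating epidermis. Many more genes were nearly as close: r was above 0.9 for 85 genes with SERPINB7, 59 with SERPINB3, 49 with SERPINB4 and 21 with SERPINB13. For SERPINB8 it was so for 2 genes, for SERPINB2 for 1, and for SERPINB1, SERPINB5 and SERPINB12 for 0. SCEL, which encodes the cornified envelope protein sciellin, was the nearest to SERPINB13 (r = 0.99, and 0.98 with line means removed) and to SERPINB3 (r = 0.96), and was also among the 3 nearest to SERPINB2 (r = 0.86). SLC15A1, a peptide transporter, and the kallikrein KLK11 followed for SERPINB3, both at r = 0.96. SERPINB7 was nearest to ARG1, SPTSSB and LORICRIN (r = 0.97 each), the last of these the main protein of the cornified envelope. SERPINB4 was nearest to VILL (r = 0.98), THRB, a thyroid hormone receptor, and EGR2 (r = 0.97 each). SERPINB8 went with the ceramide synthase CERS3 (r = 0.93), C1orf210 (r = 0.91) and the fatty acid elongase ELOVL4 (r = 0.89), where CERS3 and ELOVL4 make the very long lipids of the skin barrier. SERPINB2 went with PLCD1 (r = 0.91) and MREG (r = 0.87), SERPINB13 next with SH3PXD2A-AS1 (r = 0.96) and AZGP1P1 (r = 0.93), and SERPINB12 with GPLD1 (r = 0.89), SOX2 (r = 0.88) and CYP4F3 (r = 0.87).

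For SERPINB5 and SERPINB1 the 3 nearest genes had lower r without the shallow libraries, and the search itself was not repeated without them. The nearest to SERPINB5 were PARD6G, MAPK6 and OTULINL, each at r = 0.87, which came to 0.66, 0.67 and 0.68 without them. For SERPINB1 they were NINJ1 (r = 0.78), C4orf36 (r = 0.77) and CCDC22 (r = 0.75), which came to 0.56, 0.52 and 0.47.

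Along chromosome 18 the lower levels lay in the middle of the cluster. In order of position the log2 differences, KO minus WT, were 0.03 for SERPINB5, -0.92 for SERPINB12, -0.64 for SERPINB13, -1.25 for SERPINB4, -1.44 for SERPINB3, -1.17 for SERPINB7, -0.49 for SERPINB2 and -0.21 for SERPINB8. SERPINB11, between SERPINB4 and SERPINB7 and on the strand opposite to SERPINB3, was at -1.42 (SE 0.66, adjusted p = 0.382, limma) from a mean of 11.7. It reached the mean of 10 needed for testing only through the WT tumours, with a mean of 16.1 there and 6.98 in KO tumours. Its highest value, 91.4, was that of the shallow WT 6C9 specimen 5533, so its difference adds nothing to those of the other serpins. The clade B serpin SERPINB6 on chromosome 6 was at 0.03 (SE 0.14, adjusted p = 0.907, limma), and SERPINB9 and SERPINB10 had means under 10 and were not tested.

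Protein-coding neighbours that are not serpins lay near the level of all tested genes. Within 2000000 bases of the cluster 9 such genes were tested, all on the side of SERPINB5, with a median log2 difference of 0.13, and 0 were lower and 1 higher at an unadjusted p under 0.05, where 6.63% of all tested genes were lower and 5.9% higher. By sign alone 3 of the 9 were lower. The nearest, VPS4B and KDSR, 54475 and 109730 bases away, were at 0.03 (SE 0.11) and 0.14 (SE 0.07). Around SERPINB1 on chromosome 6, 18 genes had a median of 0.05, with 1 lower and 2 higher at that p, and 8 of 18 lower by sign alone. There MYLK4 was at -0.19 (SE 0.28), WRNIP1 at 0.07 (SE 0.10), NQO2 at -0.20 (SE 0.18) and RIPK1, a kinase of cell death signalling, at 0.19 (SE 0.08), with adjusted p of at least 0.339 for these 4 (limma).

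**Figure D5:**
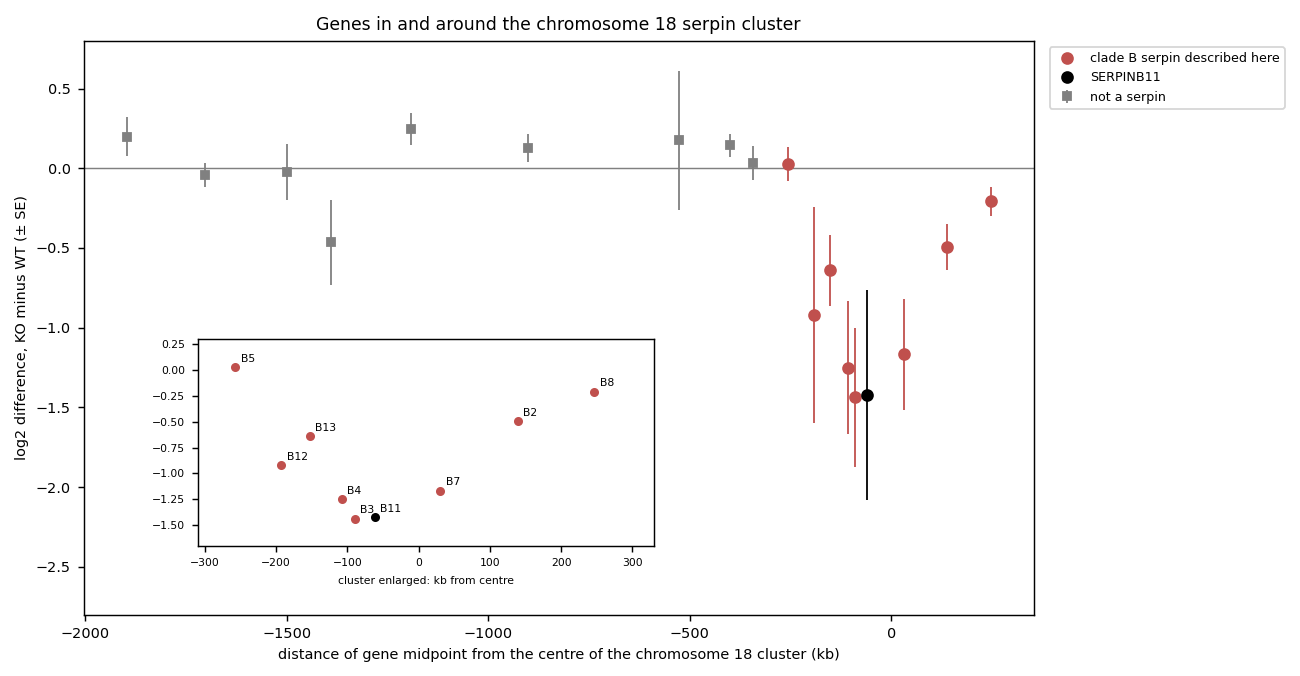
Log2 difference, KO minus WT, with its SE for tested genes in and around the chromosome 18 serpin cluster, against the distance of the gene's midpoint from the centre of the cluster in kilobases, with the cluster enlarged in the inset. Serpins in the middle of the cluster are between -0.64 and -1.44, and the 9 neighbours that are not serpins are between -0.46 and 0.25.

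Because 7 of the serpins varied together, the bases before their starts are shown for 5 of them. RefSeq (GRCh38.p14) gives 12 promoters for the 9 genes, each 250 bases before to 50 bases after a start, and 5 motifs were searched in them on both strands. AP-1 was searched as TGANTCA, STAT as TTCNNNGAA, C/EBP as TTNNGNAAT, and the interferon-response element and NF-kB as motifs of 10 letters. In the lines below, matches to any of them are in capitals, and each sequence stops at the first base that GENCODE release 29 puts in an exon. The strand is that of the gene, and the positions are chr18:63661964-63662143 for SERPINB3, chr18:63644299-63644506 for SERPINB4, chr18:63777531-63777776 for SERPINB7, chr18:63887455-63887699 for SERPINB2 and chr18:63542119-63542368 for SERPINB12.
SERPINB3: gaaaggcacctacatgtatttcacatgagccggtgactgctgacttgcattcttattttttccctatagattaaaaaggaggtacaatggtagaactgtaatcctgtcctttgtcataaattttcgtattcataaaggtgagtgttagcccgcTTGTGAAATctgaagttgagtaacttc
SERPINB4: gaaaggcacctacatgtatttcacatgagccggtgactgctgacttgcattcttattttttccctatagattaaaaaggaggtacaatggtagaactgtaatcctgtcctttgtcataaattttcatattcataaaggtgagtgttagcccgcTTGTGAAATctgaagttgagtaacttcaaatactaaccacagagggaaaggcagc
SERPINB7: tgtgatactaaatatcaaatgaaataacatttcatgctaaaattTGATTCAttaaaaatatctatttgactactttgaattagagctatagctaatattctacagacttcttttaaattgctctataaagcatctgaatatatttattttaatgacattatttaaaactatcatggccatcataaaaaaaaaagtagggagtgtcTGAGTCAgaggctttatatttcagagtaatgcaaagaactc
SERPINB2: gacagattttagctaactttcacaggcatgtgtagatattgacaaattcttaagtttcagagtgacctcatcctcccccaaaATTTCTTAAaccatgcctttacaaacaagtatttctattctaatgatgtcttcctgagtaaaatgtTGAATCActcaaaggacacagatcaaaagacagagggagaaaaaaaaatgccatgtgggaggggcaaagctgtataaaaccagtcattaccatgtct
SERPINB12: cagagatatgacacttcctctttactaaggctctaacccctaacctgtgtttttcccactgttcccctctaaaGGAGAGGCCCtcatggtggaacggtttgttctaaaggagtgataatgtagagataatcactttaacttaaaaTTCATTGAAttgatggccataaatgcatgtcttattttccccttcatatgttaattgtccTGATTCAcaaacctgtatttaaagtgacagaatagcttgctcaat

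The AP-1 letters were found in 7 of the 12 promoters, belonging to SERPINB2, SERPINB5, SERPINB7, SERPINB8, SERPINB12 and SERPINB13, against 7.71% of all 35116 promoters. SERPINB5 is among the genes with the match, and SERPINB3 and SERPINB4 are not. Whether the match goes with the differences between KO and WT tumours was not tested. The SERPINB7 start shown has 2 matches, at -206 and -45 from it. Of its other promoters, that at chr18:63775168-63775467 has 2 and that at chr18:63752807-63753106 has 0. Unlike the sequences shown, the counts take in bases inside exons. All 250 bases before the SERPINB8 start lie in exons, and the SERPINB5 match at -146 lies past the 53 bases before its first exon base. C/EBP letters were in 5 of 12 promoters against 11.0% of all, STAT in 4 against 7.66%, the interferon-response element in 1 against 3.57%, and NF-kB in 4 against 58.7%. SERPINB3 and SERPINB4 share 247 of the 250 bases before their starts and hold a single match, the same C/EBP letters at -97. A match is a description of letters and not a binding site.

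Proteases that clade B serpins act on, with the plasminogen system, were tested for 15 of 26 listed genes. Of all tested genes 6.63% were lower and 5.9% higher at an unadjusted p under 0.05. Of the 15, 5 were lower and 0 higher at that level, and 0 passed adjustment. The lowest 2 by p were the kallikreins KLK5, at a log2 difference of -1.54 (SE 0.43), and KLK7, at -1.41 (SE 0.40), both with an adjusted p of 0.227 by limma. Both are serine proteases of the outer epidermis that shed its surface cells. Among the recorded targets of the serpins themselves, urokinase PLAU was at 0.11 (SE 0.16), FURIN at -0.13 (SE 0.13) and CTSL at 0.12 (SE 0.09). CTSV, a relative of cathepsin L in squamous epithelium, was at -0.34 (SE 0.14). CTSK was at -0.04 (SE 0.22) and CTSS at -0.09 (SE 0.30). The 5 lower genes were KLK5, KLK7, CTSV, CTSH at -1.42 (SE 0.44) and CTSB at -0.23 (SE 0.09). The median of the 15 was -0.09. The neutrophil and mast cell targets CTSG, ELANE, PRTN3 and CMA1 were not among the 27589 genes of the deposited table.

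Of all tested genes 6.63% were lower and 5.9% higher at an unadjusted p under 0.05, with a median log2 difference of 0.03. Other epidermal protease inhibitors were tested for 16 of 20 listed genes, with 6 lower and 0 higher at that level, 0 past adjustment and a median of -0.17. They included SPINK5, the kallikrein inhibitor lost in Netherton syndrome, at -0.92 (SE 0.28, adjusted p = 0.232), and WFDC12 at -1.17 (SE 0.43, adjusted p = 0.298, limma). Serpins of other clades lay the other way, with 0 lower and 5 higher of 8 tested from 21 listed, 0 past adjustment and a median of 0.38. SERPINE2, or protease nexin, was at 0.57 (SE 0.20, adjusted p = 0.285, limma). Basal keratinocyte markers had 8 of 14 higher and 0 lower, 0 past adjustment and a median of 0.43, with DST at 0.50 (SE 0.14) and LAMA3 at 0.67 (SE 0.21).

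Markers of other cells in the tumours were read because SERPINB1, SERPINB2 and SERPINB8 are also made by myeloid cells. Of 11 myeloid markers 4 were tested, and 4 more had means under 10. MPO, ELANE and CSF3R were not among the genes of the deposited table. At an unadjusted p under 0.05, 0 of the 4 tested differed, where 6.63% of all tested genes were lower and 5.9% higher. CD68 was at -0.12 (SE 0.09) and CSF1R at 0.30 (SE 0.28). The summed value of the myeloid markers ranged from 420 to 655 in KO tumours and from 482 to 659 in WT tumours. Lymphoid markers summed to at most 9.52 in KO tumours and 9.60 in WT tumours, with none tested. The endothelial gene VWF was at -0.77 (SE 0.25, adjusted p = 0.245, limma), and endothelial markers summed to between 80.2 and 222 in KO tumours and between 95.6 and 238 in WT tumours. The part of these markers in the serpin values was not tested. Fibroblast markers were higher for 1 of 7, FAP at 0.54 (SE 0.26), and lower for 0, summing to between 3892 and 28258 in KO tumours and between 2403 and 16817 in WT tumours. Reads of mouse host cells can be assigned to human genes where the sequence is alike, and the sources used here do not give how they were handled.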

How the data were processed

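Each deposited value is a normalized count, here treated as a signal, 1 per gene and tumour, which the authors scaled by library. The submitters' processing notes name STAR, DESeq2 and hg38 and give neither versions nor steps. The value of 1 read in each library was estimated from the steps between low values. Of values up to 20 reads, 70.6% to 83.8% were whole within 0.02 reads, so reads were not recovered and no count model was used. The members and all gene lists were chosen with earlier results of these data known.

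The 16063 genes whose mean value was 10 or more entered the tests as log2(value + 1), a scale that understates changes of weakly expressed genes. The genotype test was limma (3.58.1, R 4.3.3) with a trended prior, line as a random block (consensus correlation 0.0077) and Benjamini-Hochberg adjustment at 0.05. The second fit, of 6 line means, gave each KO line against the 3 WT lines, and F tests among lines. Correlations were permuted 100000 times, so that 1e-05 is the smallest p they can give. No pair of libraries was alike within sampling noise. Gene positions are those of the table with its ends, which point past the last base, lowered by 1.

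The genes named are the 9 serpins, the other clade B serpins, the 3 genes most like each member, the 2 nearest tested neighbours on each side of a cluster, and from each list the 2 genes of smallest p, of which 1 is not reported here. PLAU, FURIN, CTSL, CTSV, CTSK and CTSS, as textbook targets, and CTSH and CTSB were chosen after their values were seen. The same holds for the 4 late differentiation markers that were higher by sign. Of skeletal muscle, melanocyte and endothelial markers 0 of 6, 0 of 1 and 1 of 1 tested genes differed at an unadjusted p under 0.05. Of all tested genes 12.5% did. For KO against WT, data simulated over 15774 genes gave calls for 74 of 100 genes changed 2-fold, 96 of 100 changed 4-fold and 14 unchanged genes. The simulated tumours were drawn independently, with no effect of line, so these counts do not give the recovery in the tumours themselves. Alternatives were another pseudocount, no filter, rescaled totals, library quality weights, no block, and left-out tumours or lines.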

Additional observations from a re-analysis of the deposited data

Results flagged for a closer look

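SERPINB12 had a value of 8.64 in WT 5B2 specimen 5529, far below the other 3 tumours of that line, which lay between 46.4 and 63.7. It was the only one of 45 groups of 4 tumours tested, 9 serpins in 5 lines, with a tumour so far from the rest, and chance gives about 1 in 20 such groups. The same tumour had the lowest SERPINB3 and SERPINB7 value of its line, at 3805 and 821.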

How the results depend on the processing

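Under another pseudocount, no filter or rescaling, 0 of 9 serpins were called in each comparison, and with no line block 0 of 9 for KO against WT, where alone that setting applies. Library quality weights, which limma estimates from the data, changed the counts most: 738 genes and 5 serpins (SERPINB2, SERPINB3, SERPINB4, SERPINB7 and SERPINB13, all lower) were called for KO against WT, where 1 gene and 0 serpins were called without them. The weights of the line fit stopped before convergence, with 67.2 for KO 2F7 specimen 5539 and 0.0015 for WT 6C9 specimen 5533. Of 16063 tested genes and 9 serpins, they called 7906 and 3 for KO 2F7, 1045 and 6 for KO 2B8, and 326 and 4 for KO 1G10. Among WT lines they called 1919 and 5, and among KO lines 6459 and 6. The serpin counts are therefore not read as results. In KO 2F7 the calls were SERPINB1 at -0.17, SERPINB2 at -0.28 and SERPINB12 at 0.67, not all in the same direction. The cause of the high counts was not tested. The number of genes called for KO against WT was 0 after rescaling, without both shallow libraries, and without line 2B8, 1G10, 5B2 or 6C10, and 0 to 1 with single tumours left out. With no filter it was 1 for KO 2F7 and 1 for KO 2B8. With single tumours left out it was 0 to 17 for KO 2B8, 0 to 26 for KO 1G10 and 0 to 1 among WT lines, and the number of serpins called was 0 to 1 for KO 1G10 (SERPINB4, without WT 6C9 specimen 5531).

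Directions turned only for differences near 0. For SERPINB3 in KO 2F7 the log2 difference was 0.037 after rescaling, 0.24 with weights, 0.27 without the shallow libraries and -0.25 to 0.27 with single tumours left out. For SERPINB5, KO minus WT was -0.048 with weights, -0.062 without the shallow libraries (-0.083 by line means), -0.038 without line 1G10, -0.031 without 6C9 and -0.049 to 0.064 with single tumours left out. SERPINB5 in KO 2B8 was 0.051 after rescaling and -0.11 to 0.039 with single tumours left out. With weights SERPINB8 in KO 2F7 was 0.030 and SERPINB1 in KO 2B8 0.0075. With single tumours left out, KO 2F7 differences were -0.22 to 0.39 for SERPINB4, -0.17 to 0.075 for SERPINB5, -0.14 to 0.018 for SERPINB8 and -0.0078 to 0.18 for SERPINB13.

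Without line 2F7 the KO minus WT difference of SERPINB3 was -1.97 (adjusted p = 0.0754, limma), and without line 6C9 that of SERPINB12 was -2.01 (adjusted p = 0.103). The line means of 2 serpins did not overlap, and of 0 without both shallow libraries. The line-mean comparison without those libraries and the sum of SERPINB3 and SERPINB4 were chosen after seeing the data. No paired analysis was possible because the KO and WT tumours share no specimen number. Depth limits SERPINB12 most, which had 0 to 111 reads a library.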
